A study of Mus musculus with 4 samples.

Results

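A set of 9 genes of blood clotting and of the plasminogen system, F3, F7, F13a1, Plau, Plaur, Plat, Serpinb2, Thbs1 and Tfpi, were followed in mouse peritoneal macrophages before and after lipopolysaccharide (LPS). They were chosen by name and make up 9 of the 22911 genes that a RefSeq accession on the array could name. All 9 had at least 1 probe, and 14 probes carried them.

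The study hybridised total RNA of peritoneal macrophages, whose sample titles read PEC, to 1-colour Agilent arrays, with 1 array in each of 4 groups. The groups were LysM-St18flox cells after 3 h with LPS, LysM-St18flox cells at 0 h, wild-type (WT) cells after 3 h with LPS, and WT cells at 0 h. All mice had been injected with thioglycollate, which inflames the abdominal cavity and recruits leukocytes, so every group holds elicited cells of a lavage. The dose of LPS, a bacterial cell wall component that activates Toll-like receptor 4, and the strain, sex, age and number of mice are not given in the sources used here. LysM is the promoter of the lysozyme gene, which is active in macrophages, neutrophils and other myeloid cells, and the label names no Cre allele and does not say how complete the loss of St18 was. With 1 array per group no difference below could be set against a spread between animals or cultures, and none was tested.

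The extrinsic pathway of clotting starts when tissue factor, encoded by F3, binds factor VII, encoded by F7, and the pair activates factor X. Tissue factor pathway inhibitor (Tfpi) blocks that pair, thrombin then turns fibrinogen into fibrin, and the transglutaminase factor XIII, whose A subunit is encoded by F13a1, crosslinks the clot. Urokinase (Plau) and tissue plasminogen activator (Plat) convert plasminogen into plasmin, which digests fibrin. The urokinase receptor (Plaur) holds urokinase at the cell surface, and plasminogen activator inhibitor 2 (Serpinb2) inhibits both activators. Thrombospondin 1 (Thbs1) is a secreted matrix protein that binds platelets, CD36 and CD47 and activates latent TGF-beta. Monocytes and macrophages are a known source of inducible tissue factor and of Serpinb2.

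Levels are given as normalized log2 signal, the log2 processed spot signal minus that of the array's 75th percentile, so 0 is the level below which 75% of spots lay. A gene was read from its brightest probe, and levels of different probes were not compared. A difference counted where the probe was well above background on both arrays, and 2-fold is a difference of 1 on this scale. Where the probe passed background on 1 array only, "at least" gives a bound, set against the higher of the probe's own signal and the lowest signal that passed background on the dim array. Between 52.2% and 55.6% of spots were well above background, and no spot was saturated. Repeated spots of a probe spread by 0.03 to 0.04 (median SD on the log2 scale), whereas the 2 brightest probes of a gene disagreed by more. Their median disagreement was 0.17 for the LPS difference in LysM-St18flox cells and 0.41 in WT cells, and it was 0.15 for the genotype difference at 3 h and 0.35 at 0 h, so the comparisons that use the WT 0 h array had the larger disagreement.

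The labels were checked on genes outside the set. St18 was not well above background on either LysM-St18flox array and lay below WT cells by at least 8.48-fold at 3 h and 7.07-fold at 0 h, although where its probe lies relative to the deleted part is not known here. After LPS, Tnf was 56.3-fold higher in LysM-St18flox cells and 46.6-fold higher in WT cells. Il1b was 213-fold higher in LysM-St18flox cells and 180-fold higher in WT cells. Il6 passed background only after LPS, by at least 645-fold in LysM-St18flox cells and 573-fold in WT cells. All 11 macrophage markers listed for the check were well above background on every array.

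Upstream sequence was available for 6 of the 9 genes in the RefSeq promoter table of build GRCm38.p6, and the 250 bases before each start were searched for 3 motifs on both strands. The AP-1 site TGANTCA, which reads as its own reverse complement, binds Jun and Fos dimers. It occurred upstream of F3 in 2 copies, at bases 146 to 140 and 135 to 129 before the start, upstream of Plaur at bases 69 to 63, and upstream of Serpinb2 at bases 94 to 88. The starts of F7, F13a1 and Tfpi had no match in this window. The TATA box TATAAA lay 29 to 24 bases before the Serpinb2 start, and on the reverse strand 127 to 122 bases before one Tfpi start. The NF-kB consensus had no match in any of the 6 genes, which says only that those letters are not in these windows. Of the sequences below, those of F3, Plaur and Serpinb2 belong to genes that were higher after LPS, and F7, whose level was nearly flat, is printed beside them. Capitals mark AP-1 sites and, in Serpinb2, also the TATA box, and each sequence is the strand of the gene, 5′ to 3′, ending at the base before the start. The positions are chr3:121723287-121723536 (plus strand) for F3, chr7:24462233-24462482 (plus) for Plaur, chr1:107511173-107511422 (plus) for the upstream of 2 Serpinb2 starts, and chr8:13025784-13026033 (plus) for F7.
F3: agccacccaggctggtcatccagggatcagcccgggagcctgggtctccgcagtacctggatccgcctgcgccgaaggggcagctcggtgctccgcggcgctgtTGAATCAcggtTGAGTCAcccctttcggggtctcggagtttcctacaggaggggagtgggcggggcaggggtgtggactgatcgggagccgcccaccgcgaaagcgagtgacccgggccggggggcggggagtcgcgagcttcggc
Plaur: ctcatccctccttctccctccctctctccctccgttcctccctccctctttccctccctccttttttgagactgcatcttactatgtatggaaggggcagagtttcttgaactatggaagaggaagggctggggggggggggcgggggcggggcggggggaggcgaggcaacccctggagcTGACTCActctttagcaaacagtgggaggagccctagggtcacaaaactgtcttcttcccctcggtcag
Serpinb2: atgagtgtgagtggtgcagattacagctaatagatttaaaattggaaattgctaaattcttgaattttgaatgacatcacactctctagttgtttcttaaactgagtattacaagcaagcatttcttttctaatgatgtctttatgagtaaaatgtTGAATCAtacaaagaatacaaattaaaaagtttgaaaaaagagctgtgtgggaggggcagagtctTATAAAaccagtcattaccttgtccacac
F7: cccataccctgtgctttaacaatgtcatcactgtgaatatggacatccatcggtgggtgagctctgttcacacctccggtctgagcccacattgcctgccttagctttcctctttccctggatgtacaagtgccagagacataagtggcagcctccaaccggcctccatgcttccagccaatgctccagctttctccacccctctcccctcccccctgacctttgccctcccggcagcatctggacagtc
Over all 27025 genes of the table, 7.82% had the AP-1 site in this window of at least 1 start, 8.23% the NF-kB consensus and 14.3% the TATA box. Among 9864 genes with a promoter record that were measured on all 4 arrays the AP-1 share was 5.88%, and among the 605 of them that were at least 2-fold higher after LPS in both genotypes it was 9.75%. A match is a description of the sequence and not a binding site shown in these cells.

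F3, the initiator of clotting, was higher after LPS in both genotypes. Its normalized log2 signal was 3.34 in LysM-St18flox cells at 3 h and 0.70 in LysM-St18flox cells at 0 h, and it was 2.48 in WT cells at 3 h and -0.31 in WT cells at 0 h. Both 3 h arrays thus stood above both 0 h arrays, and at each time the LysM-St18flox array stood above the WT array. The LPS difference was 6.23-fold in LysM-St18flox cells (2.64 on the log2 scale) and 6.91-fold in WT cells (2.79). F3 was number 229 from the top of 12975 genes measured in LysM-St18flox cells and number 220 of 12586 in WT cells.

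F7, the partner of tissue factor, was nearly level over the 4 arrays. Its signal was 4.23 at 3 h and 4.29 at 0 h in LysM-St18flox cells, and 4.40 at 3 h and 4.35 at 0 h in WT cells. The LPS difference was -0.06 in LysM-St18flox cells and 0.05 in WT cells, and either sign came up under other scalings. The whole span across the 4 arrays was 0.17, about the median disagreement between probes of a gene. F7 was well above background on every array, as was its inhibitor.

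Tfpi, that inhibitor, had 3 probes. By the brightest it was 0.46 at 3 h and 0.48 at 0 h in LysM-St18flox cells, against 0.33 at 3 h and 0.20 at 0 h in WT cells. The LPS difference by that probe was -0.01 in LysM-St18flox cells, with either sign under other settings, and 0.12 in WT cells. The middle probe gave -0.14 in LysM-St18flox cells and -0.34 in WT cells. The dimmest probe lay near background, with a signal of -4.12 at 3 h and -2.98 at 0 h in LysM-St18flox cells, and -3.51 in WT cells at 3 h, and it was not well above background in WT cells at 0 h (-4.94). That probe alone passed 2-fold, 2.20-fold lower after LPS in LysM-St18flox cells and at least 1.55-fold higher in WT cells. In LysM-St18flox cells the middle and dimmest probes were thus lower after LPS, by very unequal amounts, and the brightest had no settled direction. The 3 probes split in direction in WT cells.

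F13a1, which encodes the clot-crosslinking subunit, was nearly level by its brightest probe. The signal was 4.98 at 3 h and 4.84 at 0 h in LysM-St18flox cells, and 5.05 in WT cells at both 3 h and 0 h. Its LPS difference was 0.13 in LysM-St18flox cells and 0.00 in WT cells, with either sign under other settings. A dimmer probe gave 0.11 in LysM-St18flox cells but 1.04 (2.06-fold) in WT cells, where the 0 h array was the lowest of the 4 at -2.87. The probes agreed in LysM-St18flox cells and disagreed in WT cells.

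Serpinb2, the inhibitor of urokinase and tissue plasminogen activator, had the largest LPS difference of the 9 genes in WT cells, while in LysM-St18flox cells the bound of Plat was above it. Its signal was 4.80 at 3 h and 1.11 at 0 h in LysM-St18flox cells, and 4.26 at 3 h and -0.21 at 0 h in WT cells. The order of the arrays was the same as for F3, both 3 h arrays on top and LysM-St18flox above WT at each time. Serpinb2 was 12.9-fold higher after LPS in LysM-St18flox cells (3.69) and 22.1-fold higher in WT cells (4.46). That placed it at number 103 of 12975 genes in LysM-St18flox cells and number 61 of 12586 in WT cells.

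Plat, tissue plasminogen activator, was measurable mainly after LPS. Its signal was -0.43 in LysM-St18flox cells at 3 h and -0.38 in WT cells at 3 h. At 0 h it was not well above background in LysM-St18flox cells (-5.14) and was dim in WT cells (-3.91). Plat was thus at least 13.1-fold higher after LPS in LysM-St18flox cells and 11.6-fold higher in WT cells (3.53), where it was number 127 of 12586 genes. The size of the WT value is loose, from 2.345 to 3.62 over the settings that gave one. Its signal in WT cells at 0 h lay close to the lowest that passed background on that array, -4.14. The 2 arrays at 3 h differed by 0.05, so the levels after LPS were close.

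Plau, urokinase, pointed the other way from Plat. Its brightest probe read 3.37 at 3 h and 3.62 at 0 h in LysM-St18flox cells, and 3.34 at 3 h and 3.65 at 0 h in WT cells. Both 3 h arrays stood below both 0 h arrays, by 0.25 in LysM-St18flox cells and 0.31 in WT cells. The dimmer probe also stood lower at 3 h, with larger differences, -0.92 (1.89-fold lower) in LysM-St18flox cells and -0.66 (1.58-fold lower) in WT cells. Neither probe reached 2-fold in either genotype.

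Plaur, the receptor that binds urokinase, was higher after LPS. Its signal was 6.61 at 3 h and 5.32 at 0 h in LysM-St18flox cells, and 6.68 at 3 h and 5.73 at 0 h in WT cells. The difference was 2.44-fold in LysM-St18flox cells (1.29) and 1.93-fold in WT cells (0.95). The 3 h arrays were nearly equal, and the 0 h array of LysM-St18flox cells was the lowest of the 4. The WT value lies just under 2-fold and was 1.03 with median scaling.

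Thbs1, the matrix protein, was also higher after LPS by both of its probes. The brightest read 5.19 at 3 h and 4.19 at 0 h in LysM-St18flox cells, and 5.45 at 3 h and 4.96 at 0 h in WT cells. Its LPS difference was 2.01-fold in LysM-St18flox cells and 1.41-fold in WT cells (0.49). The dimmer probe gave 0.88 in LysM-St18flox cells and 0.86 in WT cells. The LysM-St18flox value sits on the 2-fold line and was 0.69 after quantile normalization.

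**Figure D1:**
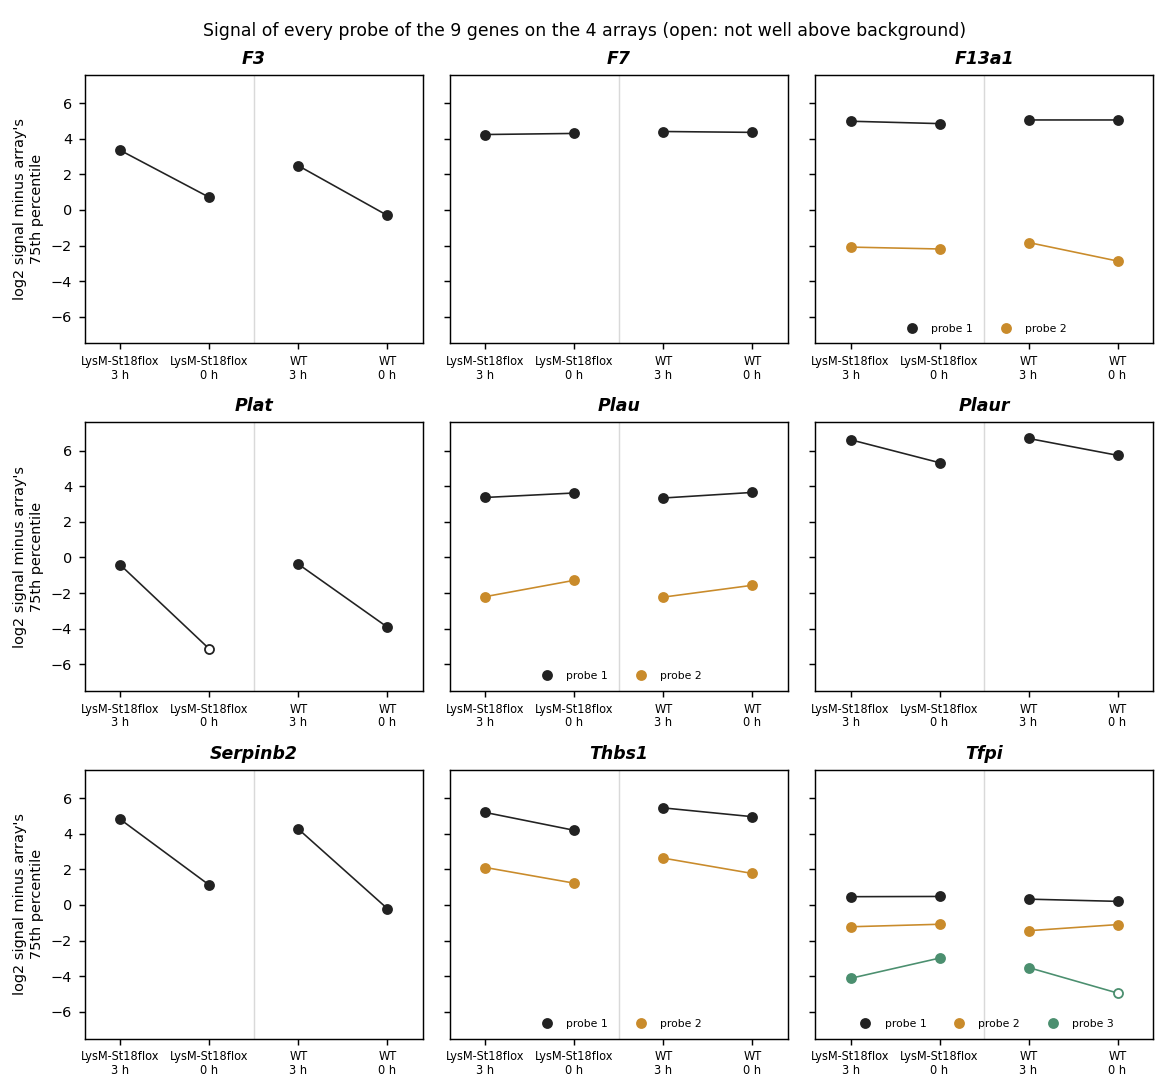
Normalized log2 signal (vertical axis, log2 signal minus the array's 75th percentile, same range in every panel) of every probe of the 9 genes on the 4 arrays, 1 point per array, with lines joining the 3 h and 0 h arrays of a genotype and open points not well above background. F3, Serpinb2 and Plat stand higher at 3 h in both genotypes, for example Serpinb2 at 4.80 against 1.11 in LysM-St18flox cells, while F7 and the brightest F13a1 probe are nearly level.

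Among the 9 genes, 8 were measured in LysM-St18flox cells, of which 4 passed 2-fold upward after LPS (Serpinb2, F3, Plaur and Thbs1) and none downward. Plat, the remaining gene, was higher by its bound. In WT cells 3 of 9 passed 2-fold upward (Serpinb2, Plat and F3) and none downward. Over all genes the share past 2-fold in LysM-St18flox cells was 8.12% upward and 8.97% downward, together 17.1%. In WT cells it was 9.04% upward and 11.6% downward, together 20.7%. The share of the 9 genes past 2-fold upward was above that background in both genotypes, and the genes were picked with earlier results of these arrays known. Their median difference was 0.57 in LysM-St18flox cells, where all genes had -0.09, and 0.49 in WT cells, where all genes had -0.11. With median scaling the LysM-St18flox split over all genes was 1376 higher and 742 lower, against 1054 higher and 1164 lower with the 75th percentile.

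**Figure D2:**
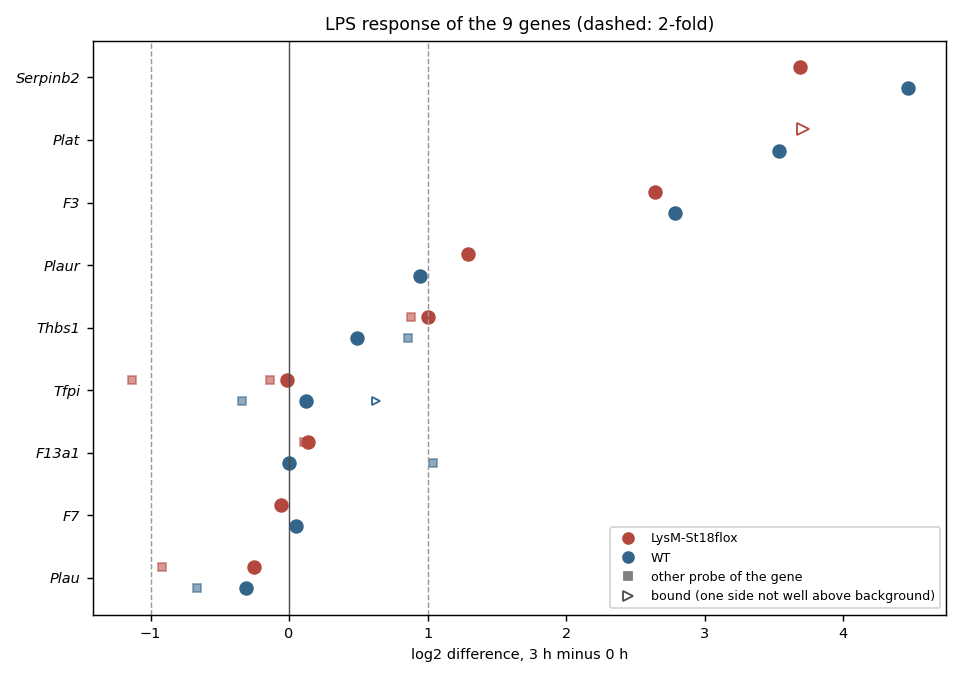
LPS difference (horizontal axis, log2 signal at 3 h minus 0 h) of each of the 9 genes in LysM-St18flox cells (red) and WT cells (blue), with large points for the brightest probe, squares for other probes, triangles for bounds and dashed lines at 2-fold. Serpinb2, Plat and F3 lie right of 2-fold in both genotypes, Plaur and Thbs1 straddle the line, and Plau lies left of 0 by both probes.

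**Figure D3:**
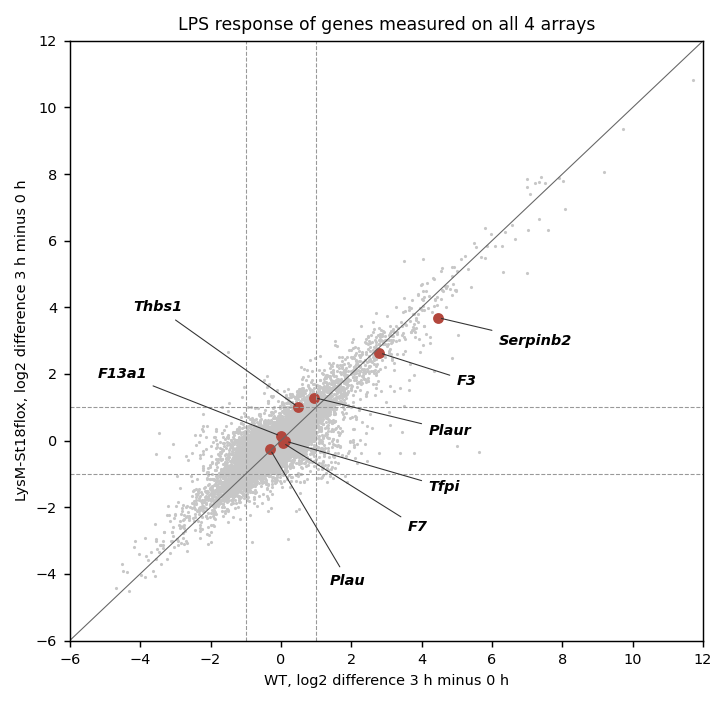
LPS difference in LysM-St18flox cells (vertical axis, log2) against WT cells (horizontal axis, log2) for the 12343 genes whose brightest probe was measured on all 4 arrays (grey), with 8 of the 9 genes in red, the diagonal of equal values and dashed lines at 2-fold. Plat is not drawn because it was not well above background in LysM-St18flox cells at 0 h. F3 (2.64 in LysM-St18flox cells, 2.79 in WT cells) lies near the diagonal and Serpinb2 (3.69 in LysM-St18flox cells, 4.46 in WT cells) below it.

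Between genotypes, F3 and Serpinb2 were the members that stood furthest above WT cells in LysM-St18flox cells, by their brightest probes. At 0 h Serpinb2 was 2.49-fold higher (1.32) and F3 2.02-fold higher (1.01) in LysM-St18flox cells than in WT cells. At 3 h the same comparison gave 1.46-fold for Serpinb2 (0.54) and 1.82-fold for F3 (0.86). F3 sits on the 2-fold line at 0 h and was 0.88 with median scaling and 0.97 with normexp background correction. Both F3 and Serpinb2 have only 1 probe, so no second probe could be set beside these values. Where a gene had 2 measured probes, they disagreed by 2-fold or more for 10.9% of genes in the 0 h comparison.

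Thbs1 was the member that stood lowest in LysM-St18flox cells. By the brightest probe it was 1.70-fold lower than in WT cells at 0 h (-0.77) and 0.26 lower on the log2 scale at 3 h. The dimmer probe gave -0.55 at 0 h and -0.53 at 3 h, the same direction. Plaur was 1.33-fold lower at 0 h (-0.42) and differed by -0.07 at 3 h. Plat was at least 1.17-fold lower at 0 h, by its bound, and differed by -0.05 at 3 h. Apart from Serpinb2, F3, Thbs1 and Plaur, the brightest probes of the measured members differed between genotypes by at most 0.28 at 0 h and 0.17 at 3 h.

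The dim probes were less settled. The second F13a1 probe gave 0.68 at 0 h while the brightest gave -0.20, and the dimmest Tfpi probe was at least 2.24-fold higher at 0 h by its bound while the brightest gave 0.28. The second Plau probe gave 0.28 at 0 h, where the brightest gave -0.03. These gaps all involve the WT 0 h array, as do the 0 h genotype values of F3 and Serpinb2. In all, 2 of 8 measured members passed 2-fold upward at 0 h and none downward, and 0 of 9 were past 2-fold at 3 h. Over all genes 3.04% were higher and 3.03% lower at 0 h, together 6.07%, and 1.82% were higher and 1.4% lower at 3 h, together 3.22%. The members' median difference was -0.05 at both times, against -0.03 over all genes at 0 h and -0.01 at 3 h. With median scaling the 0 h split over all genes was 295 higher and 662 lower, against 385 and 384.

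**Figure D4:**
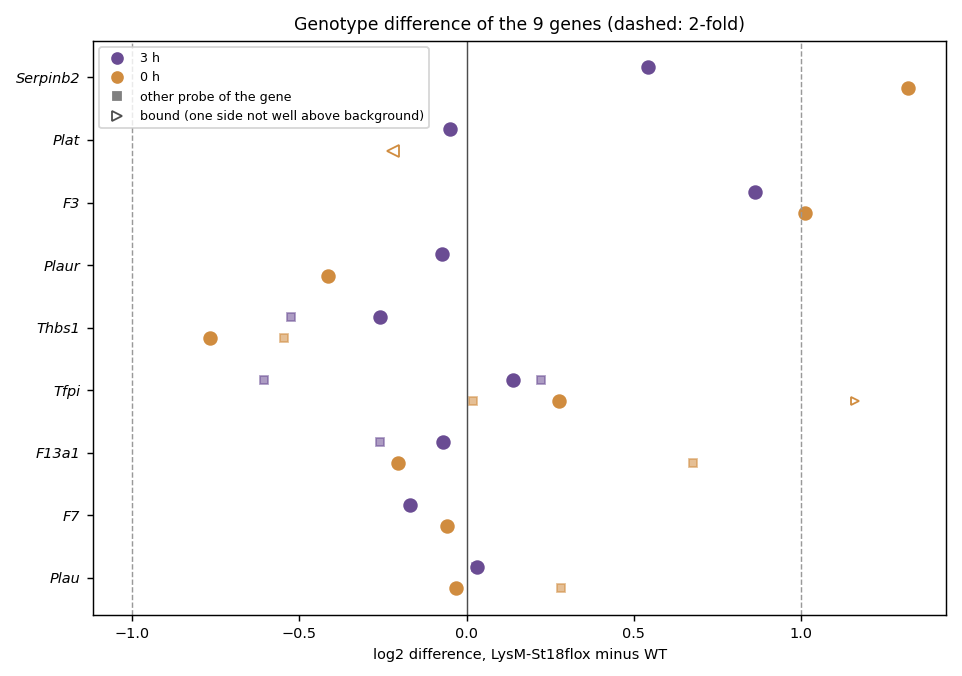
Genotype difference (horizontal axis, log2 signal in LysM-St18flox cells minus WT cells) of each of the 9 genes at 3 h (purple) and 0 h (orange), with large points for the brightest probe, squares for other probes, triangles for bounds and dashed lines at 2-fold. Serpinb2 (1.32 at 0 h and 0.54 at 3 h) and F3 (1.01 and 0.86) lie to the right, and both Thbs1 probes lie left of 0 at both times.

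Markers of cell types moved between the genotypes as well. Of 6 measured B cell markers, 5 were past 2-fold at each time, all higher in LysM-St18flox cells. The summed signal of their 8 genes, as multiples of the array's 75th percentile signal, was 17.9 in LysM-St18flox cells and 2.98 in WT cells at 3 h, and 22.5 in LysM-St18flox cells and 3.88 in WT cells at 0 h. Mesothelial and fibroblast markers were past 2-fold on the lower side in LysM-St18flox cells for 8 of 10 measured at 3 h (summed signal 4.55 in LysM-St18flox cells, 13.2 in WT cells) and 6 of 9 at 0 h (5.83 in LysM-St18flox cells, 12.4 in WT cells). Large peritoneal macrophage markers were at least 2-fold higher for 4 of 14 at 3 h (252 in LysM-St18flox cells, 320 in WT cells) and 4 of 13 at 0 h (211 in LysM-St18flox cells, 265 in WT cells). Most of that sum was 1 gene, Fn1, which differed between genotypes by -0.48 at 3 h and -0.35 at 0 h. By direction alone, 12 of 14 of these markers at 3 h and 9 of 13 at 0 h were higher in LysM-St18flox cells. Neutrophil markers were lower for 4 of 11 and higher for 1 at 3 h (176 in LysM-St18flox cells, 252 in WT cells), and lower for 5 of 12 at 0 h (166 in each genotype). The largest part of the neutrophil sum on each array was Csf3r, which differed between genotypes by -0.01 at 3 h and 0.69 at 0 h. Mast cell markers were higher for 4 of 5 at 3 h (6.85 in LysM-St18flox cells, 1.89 in WT cells) and 3 of 5 at 0 h (7.05 in LysM-St18flox cells, 2.11 in WT cells). Small peritoneal macrophage and monocyte markers were higher for 3 of 10 at 3 h (107 in LysM-St18flox cells, 72.1 in WT cells) and 2 of 10 at 0 h (95.1 in LysM-St18flox cells, 76.8 in WT cells), and eosinophil markers for 1 of 5 at 3 h (7.58 in LysM-St18flox cells, 4.16 in WT cells) and 3 of 5 at 0 h (8.48 in LysM-St18flox cells, 4.06 in WT cells). The part of these cell types in the genotype values of F3, Serpinb2 and Thbs1 was not tested, and in such bulk RNA fewer cells of a type and less RNA per cell cannot be told apart.

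Platelets and endothelium, other known sources of thrombospondin 1, tissue plasminogen activator and Tfpi, were also checked. Of 12 platelet markers, those well above background numbered 8 at 3 h and 5 at 0 h in LysM-St18flox cells, against 4 at 3 h and 6 at 0 h in WT cells, and Itga2b, Gp9, Gp1ba and Tubb1 were on no array. Of 11 endothelial markers, 3 or 4 were well above background on each array, and Tek, Tie1, Cldn5, Esam, Robo4 and Erg on none. The summed platelet signal at 3 h was 98.3 in LysM-St18flox cells and 146 in WT cells. At 0 h it was 83.5 in LysM-St18flox cells and 164 in WT cells. Nearly all of this sum was 1 gene, Pf4 (platelet factor 4), which differed between genotypes by -0.58 at 3 h and -0.98 at 0 h. Of the measured platelet markers, 3 of 4 at 3 h and 4 of 5 at 0 h were lower in LysM-St18flox cells. The exception, Clec1b, was higher by 0.71 at 3 h and 0.47 at 0 h. Ppbp, a platelet chemokine gene, stood lower in LysM-St18flox cells, by 2.36-fold at 3 h and 2.93-fold at 0 h. Its probe was dim, at -4.03 in LysM-St18flox cells at 0 h, where the lowest signal that passed background was -4.13. Gp5, a platelet receptor subunit gene, was the other way at 3 h, higher in LysM-St18flox cells by at least 9.14-fold, on the only array where it passed background. After LPS, Treml1 was 4.28-fold lower in LysM-St18flox cells and 3.01-fold lower in WT cells. Among endothelial markers, the bounds put Cdh5, the VE-cadherin gene, at least 4.58-fold higher after LPS in LysM-St18flox cells and 2.92-fold higher in WT cells. Kdr went the other way, 1.69-fold lower in LysM-St18flox cells and 1.77-fold lower in WT cells. Pecam1 differed by 0.21 in LysM-St18flox cells and 0.20 in WT cells. Emcn had a bound of -3.71 on the log2 scale after LPS in WT cells (lower by at least that much), since it passed background in WT cells at 0 h alone. The summed endothelial signal was 0.98 at 3 h and 1.02 at 0 h in LysM-St18flox cells, and 0.89 at 3 h and 1.69 at 0 h in WT cells. The part of platelets and endothelium in the values of Thbs1, Plat and Tfpi was not tested. No B cell or mast cell marker passed 2-fold after LPS, by a measured value or a bound. Mesothelial and fibroblast markers were at least 2-fold lower after LPS for 1 of 9 in LysM-St18flox cells and 0 of 10 in WT cells, and of 11 macrophage markers 2 passed 2-fold upward and 2 downward in LysM-St18flox cells, and 3 each way in WT cells.

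The LPS differences of the 2 genotypes were set side by side for each member. Serpinb2 had the widest gap among the brightest probes, its LPS difference being 0.77 smaller in LysM-St18flox cells on the log2 scale. Its signals at 3 h lay 0.54 apart and those at 0 h 1.32 apart. For Thbs1 the difference was 0.51 larger in LysM-St18flox cells by the brightest probe and 0.02 larger by the dimmer one. For Plaur it was 0.34 larger, and for F3 0.15 smaller, in LysM-St18flox cells. None of these gaps has a replicate behind it.

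A wider set of 72 genes of clotting and fibrinolysis, all with a probe, gives the surroundings of the 9 genes. After LPS, 7 of 44 measured passed 2-fold upward and 2 downward in LysM-St18flox cells, and 2 of 40 upward and 2 downward in WT cells, against the 8.12% and 8.97%, and the 9.04% and 11.6%, over all genes. The list of plasminogen receptors and fibrinolysis regulators also held further serpin protease inhibitors, Serpinb9 and Serpinb8 among them. Of its genes, 2 of 15 measured passed 2-fold upward and 1 downward in LysM-St18flox cells. In WT cells 0 of 12 did so in either direction. The 2 upward were Serpinb9, a granzyme B inhibitor, at 2.54-fold in LysM-St18flox cells and 1.66-fold in WT cells, and Serpinb8 at 2.21-fold in LysM-St18flox cells and 1.03-fold in WT cells. A second Serpinb8 probe gave 0.73 in LysM-St18flox cells and 1.05 in WT cells. Vldlr, a receptor that takes up protease and inhibitor complexes, was 2.60-fold lower in LysM-St18flox cells and, by its bound, at least 1.51-fold higher in WT cells. By genotype at 0 h it was higher in LysM-St18flox cells by a bound of 2.81-fold. The Vldlr probe was dim, at -4.03 in LysM-St18flox cells at 3 h, where the lowest signal that passed background was -4.74. Its other probe passed background on no array. Tfpi2, Proz and Vtn passed background in WT cells at 3 h alone, and at that time they were lower in LysM-St18flox cells by bounds of 2.58-fold for Tfpi2, 2.57-fold for Proz and 2.05-fold for Vtn.

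Anticoagulant genes included the most negative value of the wider set. Thbd, which encodes thrombomodulin, the thrombin receptor needed to activate protein C, read -1.25 at 3 h and 2.32 at 0 h in LysM-St18flox cells, and -1.38 at 3 h and 2.16 at 0 h in WT cells. It was 11.8-fold lower after LPS in LysM-St18flox cells and 11.6-fold lower in WT cells, nearly the same in each. Procr, the endothelial protein C receptor gene, was 2.76-fold higher in LysM-St18flox cells and 2.52-fold higher in WT cells. Hs3st1, a heparan sulphate sulphotransferase that makes antithrombin-binding chains, was 3.55-fold lower in WT cells and differed by -0.12 in LysM-St18flox cells. Its probe was dim, at -4.07 in WT cells at 3 h, where the lowest signal that passed background was -4.41, and -2.24 in WT cells at 0 h. The other Hs3st1 probe passed background on no array. Of 8 anticoagulant genes measured, 1 passed 2-fold upward and 1 downward in LysM-St18flox cells, and 1 upward and 2 downward in WT cells.

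Clotting factors themselves showed little. Of 23 genes 12 were measured in each genotype, and F2, F8, F11, F12, F13b, Fga, Fgb and Fgg, largely made in the liver, passed background on none of the arrays. F10, which encodes factor X, was 2.29-fold higher after LPS in LysM-St18flox cells (1.19) and 1.91-fold higher in WT cells (0.93). Tgm2, a tissue transglutaminase, was 2.18-fold higher in LysM-St18flox cells and 1.99-fold higher in WT cells. No other clotting factor gene passed 2-fold, and the list's median was -0.06 in LysM-St18flox cells and -0.12 in WT cells.

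Receptors for thrombin and thrombospondin had the highest list median, 0.69 in LysM-St18flox cells and 0.44 in WT cells. Itgav, the alpha-V integrin, was 2.94-fold higher after LPS in LysM-St18flox cells and 2.58-fold higher in WT cells. Itga5, the alpha subunit of a fibronectin receptor, was 2.20-fold higher in LysM-St18flox cells and 1.89-fold higher in WT cells. Cd47, a thrombospondin receptor, differed by 0.81 in LysM-St18flox cells and 0.87 in WT cells, under 2-fold. F2r, a thrombin receptor, was dim, and was 2.20-fold higher in LysM-St18flox cells than in WT cells at 3 h, with a bound of at least 2.42-fold at 0 h. F2rl2, another protease-activated receptor, was higher in LysM-St18flox cells by 1.20 on the log2 scale at 3 h and 0.38 at 0 h. Its probe was dim too, at -3.74 in WT cells at 3 h. Itgb3, the platelet and macrophage beta-3 integrin, was 2.09-fold higher in LysM-St18flox cells at 3 h and 2.32-fold higher at 0 h by its brightest probe, but the other probe gave -0.16 and -1.55, so its direction rests on the probe. By genotype at 3 h, 3 of 44 measured genes of the wider set passed 2-fold upward and 0 downward. At 0 h it was 1 of 41 upward and 2 downward. Over all genes the shares were 1.82% upward and 1.4% downward at 3 h, and 3.04% and 3.03% at 0 h. The upward genes were F2r, F2rl2 and Itgb3 at 3 h and Itgb3 alone at 0 h, by their brightest probes. The 2 downward ones, lower in LysM-St18flox cells, were Hs3st1 (2.36-fold, by its dim probe) and Serpinb8 (2.09-fold, with 0.21 from its other probe).

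**Figure D5:**
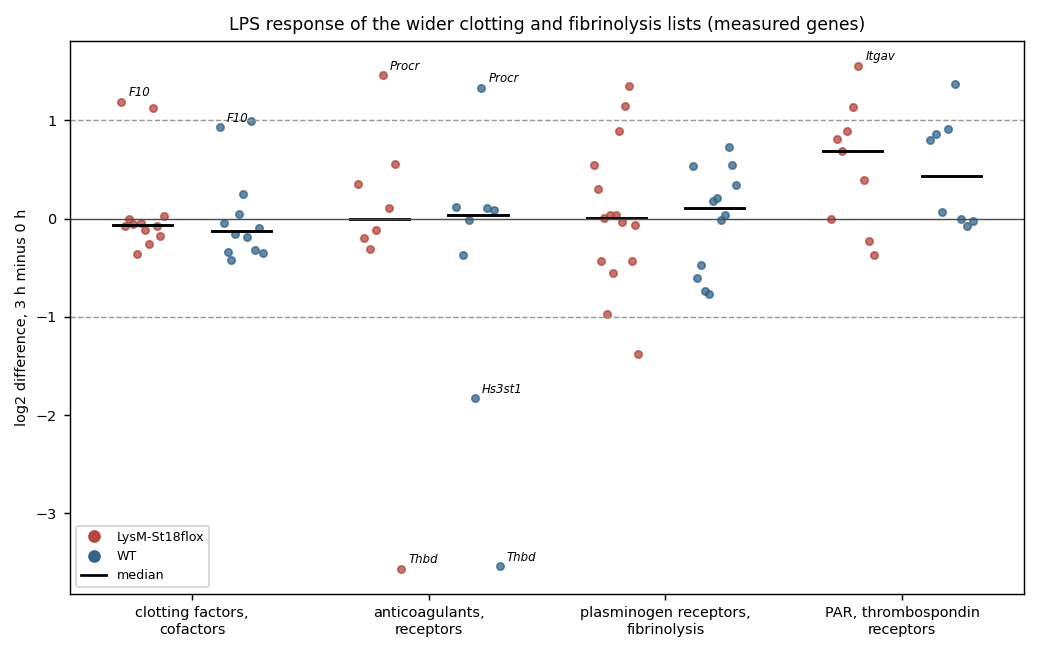
LPS difference (vertical axis, log2 signal at 3 h minus 0 h) of the measured genes in 4 lists of the wider clotting and fibrinolysis system, 1 point per gene, LysM-St18flox cells in red left of WT cells in blue, with black bars at the medians and dashed lines at 2-fold. Itgav lies highest in each genotype, at 1.56 in LysM-St18flox cells and 1.37 in WT cells, and Thbd lowest, at -3.56 in LysM-St18flox cells and -3.54 in WT cells.

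The genes whose profile over the 4 arrays lay nearest to a member's were found among 11616 genes measured on all 4, without genes that carry only clone or model names, by root mean square distance between profiles centred on their means. The 4 members named below ranged widely enough for this. The nearest to F3 were Nlrc5, Htr7 and Tap1, at distances of 0.03, 0.12 and 0.15 log2 units. The nearest to Serpinb2 were Gbp7, Gbp3 and Gbp2, which encode guanylate-binding proteins induced by interferon, at 0.14, 0.15 and 0.16. The nearest to Plaur were Xylt2, Il20rb and Fosb, at 0.02 to 0.04, and the nearest to Thbs1 were Ccl9, Lgals9 and Fgfr1op2, at 0.03 to 0.07. With only 4 arrays many profiles are alike, and likeness here says nothing of shared function.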

How the data were processed

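RNA of 4 samples was labelled with Cy3 and hybridised to 1-colour Agilent arrays. The deposited scanner files hold spot intensity values. Per the file headers, the scanner software was Agilent Feature Extraction 11.0.1.1 and the build mm9, so no array coordinates are given. From the processed signal, the 59305 non-control spots of each array were scaled by their 75th percentile (processed signal 672 to 1067) and taken as log2, and spots of a probe were averaged without outliers. Names came from RefSeq accessions, of which 32994 of 35886 matched 1 symbol of GRCm38.p6. The authors' deposited table of log2 values (25482 probes, 12 of the 14 probes of the 9 genes) has columns with the same quantiles, and the sources used here do not give its normalization. It served as an alternative only.

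A gene's brightest probe over the 4 arrays was used. Groups came from the sample labels, and each group has 1 array, so values have no SD, and no test was run. The number of arrays limits the precision. A call is a difference of at least 2-fold on probes well above background, not saturated and not outliers on both arrays. Named were the 9 genes, genes of 4 wider lists past 2-fold (at most 8 per list, comparison and direction, and 3 bounds), St18, Tnf, Il6 and Il1b, and the 3 nearest profiles. From these, most bounds of the wider lists under 2-fold are left out, and Cd47, F2 and other clotting factors at background were added after their values were seen. Apart from these, 1 gene of the wider lists is not reported here. The members and lists were chosen with earlier results of these data known. Alternatives were all probes averaged, median scaling, quantile normalization, a percentile over probes well above background on all arrays, and normexp correction (offset 50, limma 3.58.1, R 4.3.3). The others were no background filter, a stricter one, and the deposited table. Scripts used Python 3.11.15 with numpy 2.4.6 and pandas 2.3.3 and were tested on simulated data.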

Additional observations from a re-analysis of the deposited data

Results flagged for a closer look

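F7 and Tfpi had LPS differences of opposite sign in the genotypes, each with 1 array per group, so the differences were not tested. For F7 the values were -0.06 in LysM-St18flox cells and 0.05 in WT cells, a gap of -0.11 (LysM-St18flox minus WT). For Tfpi, by its brightest probe, they were -0.01 in LysM-St18flox cells and 0.12 in WT cells, a gap of -0.14. Both gaps are smaller than the median disagreement of 0.17 and 0.41 between probes of a gene in these comparisons.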

How the results depend on the processing

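Each result was recomputed under 8 alternatives. Of 17 LPS values 12 kept their sign under every alternative that gave a value, and of 17 genotype values 13 did. The exceptions were F13a1 and F7 in both genotypes and Tfpi in LysM-St18flox cells for LPS, and F13a1, F7 and Plau at 0 h and Tfpi at 3 h for genotype. All 9 values past 2-fold kept their direction, and 7 stayed past 2-fold, under every alternative that gave a value. Those that did not stay past it were Thbs1 after LPS in LysM-St18flox cells (0.69 to 1.23) and F3 by genotype at 0 h (0.88 to 1.05). Plat after LPS in WT cells had no value with the stricter filter or from the deposited table. Median scaling moved the median of all genes after LPS in LysM-St18flox cells to 0.14, against -0.09, and that of the genotype difference at 0 h to -0.17, against -0.03. This scaling moves every gene of a comparison by the same amount, so the place of the 9 genes among all genes could not change. It left 742 genes lower after LPS in LysM-St18flox cells, and 1 of the 9 genes higher and 662 genes lower by genotype at 0 h. Normexp correction gave 757 genes lower after LPS in LysM-St18flox cells, 137 higher and 96 lower by genotype at 3 h, and 1 of the 9 genes higher, 229 genes higher and 251 lower at 0 h. Without the background filter, LPS in LysM-St18flox cells gave 1834 genes higher and 2232 lower, LPS in WT cells 2215 and 2767, genotype at 3 h 993 and 1039, and genotype at 0 h 1473 and 1347, with 1 of the 9 genes, Plat, lower. The stricter filter gave 131 higher and 73 lower by genotype at 3 h, and 165 and 204 at 0 h. The deposited table gave 118 lower by genotype at 3 h. Both filters change how many genes are counted. The cause of the other changes was not tested. No paired analysis was possible because each group has 1 array, and for the same reason no array could be left out. Near background, a probe limits a difference to a bound.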
